A study of Mus musculus with 189 samples.

Results

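Dazl, ZP3 and Brdt are the germline transcripts described here, 3 of the 192 qPCR assays run on mouse oocytes, zygotes and preimplantation embryos. They were taken by gene name from the table of non-normalized values. All 3 belong to the 156 assays that passed the authors' quality control. The study followed chromatin modifiers and stage markers from MII oocytes, which are mature unfertilized eggs, to the 32-cell blastocyst. The main set held 11 MII oocytes, 14 zygotes, 21 samples of 2-cell embryos, 7 of 3-cell embryos, 12 of 4-cell embryos, 27 of 8-cell embryos, 26 of 16-cell embryos (morulae) and 50 of 32-cell embryos. Per the study's methods, oocytes came from superovulated F1 females (C57BL/6 x DBA/2), and embryos from such females mated to C57BL6 males and cultured in KSOMaa medium under low oxygen. No sample carried an engineered allele or a treatment, and neither age nor mother is given, so p-values measure the spread between these oocytes and embryos. Up to the zygote a sample was 1 cell. Later samples were blastomeres, that is single cells of an embryo or small groups of them, together with 3 whole embryos each of the 2-, 4- and 8-cell stages.

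A growing oocyte stores transcripts that serve the egg after its own transcription has stopped. Many of them are removed between meiotic maturation and the first cleavages, while transcription from the embryonic genome takes over. Dazl encodes a germ cell RNA-binding protein that acts on the translation of stored transcripts. ZP3 (Zp3 in RefSeq) encodes a glycoprotein of the zona pellucida, the coat of the egg, which sperm bind. Brdt encodes a bromodomain protein of the BET family that binds acetylated histones and is known for its role in sperm development.

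The sequences before the transcription starts of the 3 genes are shown because all 3 transcripts were lower in blastocysts than in oocytes, though they fell at different steps. All 3 genes were matched in RefSeq (GRCm38.p6). The 250 bases before the start lie at chr17:50293621-50293870 on the minus strand for Dazl, at chr5:135979855-135980104 on the plus strand for Zp3 and at chr5:107330944-107331193 on the plus strand for Brdt. Capitals mark the E-box CANNTG, which reads the same on both strands.
Dazl: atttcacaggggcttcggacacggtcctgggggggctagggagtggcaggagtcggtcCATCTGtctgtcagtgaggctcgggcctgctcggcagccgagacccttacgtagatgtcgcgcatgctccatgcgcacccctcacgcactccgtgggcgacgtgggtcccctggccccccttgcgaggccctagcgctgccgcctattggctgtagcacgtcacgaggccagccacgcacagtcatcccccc
Zp3: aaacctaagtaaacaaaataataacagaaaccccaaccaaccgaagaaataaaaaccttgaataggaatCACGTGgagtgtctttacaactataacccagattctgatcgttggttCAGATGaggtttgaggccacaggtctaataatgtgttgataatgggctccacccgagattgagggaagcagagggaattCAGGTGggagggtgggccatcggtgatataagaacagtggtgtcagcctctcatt
Brdt: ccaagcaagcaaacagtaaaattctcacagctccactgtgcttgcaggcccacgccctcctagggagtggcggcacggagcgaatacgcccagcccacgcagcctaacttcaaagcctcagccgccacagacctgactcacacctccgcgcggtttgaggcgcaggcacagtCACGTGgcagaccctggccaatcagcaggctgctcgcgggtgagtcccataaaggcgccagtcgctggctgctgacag
Dazl held 1 such word (CATCTG, first base 192 bases before the start). Zp3 held 3, namely CACGTG at 181, CAGATG at 134 and CAGGTG at 55 bases before the start. Brdt held 1 (CACGTG, 78 bases before the start). Of 32851 mouse promoter windows of this length, 66.2% held CANNTG and 6.02% held CACGTG, a word that is part of the former. The Dazl window held 20 CG dinucleotides, the Brdt window 16 and the Zp3 window 5, against a median of 6 over all windows. At least as many as in Dazl were present in 17.9% of the windows, as in Brdt in 25.4% and as in Zp3 in 55.6%. No readout of this study bears on binding or methylation at these sequences.

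The measurement is the cycle threshold (Ct) after 18 cycles of preamplification, on which fewer cycles mean more transcript, and a Ct of 30 stands for a gene that was not detected. The raw value is 30 minus the Ct, so that 1 unit is a factor of 2 if PCR doubled its product in each cycle. The normalized value is the raw value minus the mean raw value of the control genes Hnrnpr, Ssu72 and Ube2e1, also on the log2 scale. Assays differ in their efficiency, so the levels of different genes are not ranked here. The mean Ct of the control genes ranged from 12.3 to 13.5 in MII oocytes and from 13.8 to 20.2 in samples of the 32-cell stage, so late samples held less template. In 3 repeats of 200 pg embryonic stem cell (ESC) RNA the SD of the Ct was 0.421 for Dazl and 0.161 for ZP3, while Brdt was not detected in 1 of them. The 4 oocyte markers ZP3, Dppa3, Kdm1b and Tet3 had a mean normalized value of 1.91 in the median MII oocyte, where 12 markers of the inner cell mass (ICM) had -3.45 and 8 of the trophectoderm (TE) -5.09; in the median 32-cell sample the values were -6.07, 0.64 and -5.65.

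All 3 transcripts were far lower in late embryos than in oocytes. From MII oocytes (n = 11) to 16- and 32-cell embryos (n = 9, each embryo averaged over its blastomere samples), the normalized value of Dazl fell by 15.11 (standard error 0.81, limma adjusted p = 1.20e-23). ZP3 fell by 10.33 (standard error 1.10, limma adjusted p = 2.81e-12) and Brdt fell by 9.21 (standard error 0.29, limma adjusted p = 5.04e-33). In each case the late embryos lay below the oocytes without overlap. Among all 156 genes 46.8% were lower, 37.8% were higher and the median difference was -0.35, and the 3 genes ranked 1, 4 and 5 from the lowest. The study named Dazl as maternal and Brdt and Zp3 as predominantly maternal from these same data. The fall and these ranks were thus known beforehand and are no independent support. Without normalization 117 genes were lower and 19 higher, against 73 and 59, and the median was -4.65. There whole oocytes are set against blastomere samples, so the part of an egg or embryo per reaction also differed. The difference of each member from the median (-14.76 for Dazl, -9.98 for ZP3 and -8.86 for Brdt) does not depend on the scaling. These differences contain undetected samples, whose normalized value is set by the control genes alone, and are therefore not given as folds.

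The loss was spread over different steps. Dazl passed the test at zygote to 2-cell, 4-cell to 8-cell and 8-cell to 16-cell, and Brdt at 4-cell to 8-cell and 8-cell to 16-cell. From 2-cell to 4-cell Dazl passed only in some alternatives, such as an exact permutation test with unadjusted p. ZP3 passed at no single step with all samples. The steps were tested with limma over 156 genes in 1 fit of 58 oocytes and embryos, with Benjamini-Hochberg adjustment. Of the 156 genes, 1.28% were lower from MII oocyte to zygote, 39.1% from zygote to 2-cell, 25.6% from 2-cell to 4-cell, 35.9% from 4-cell to 8-cell, 8.33% from 8-cell to 16-cell and 1.92% from 16-cell to 32-cell. The shares of higher genes were 0.641%, 29.5%, 7.05%, 13.5%, 19.9% and 8.97% in the same order.

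**Figure D1:**
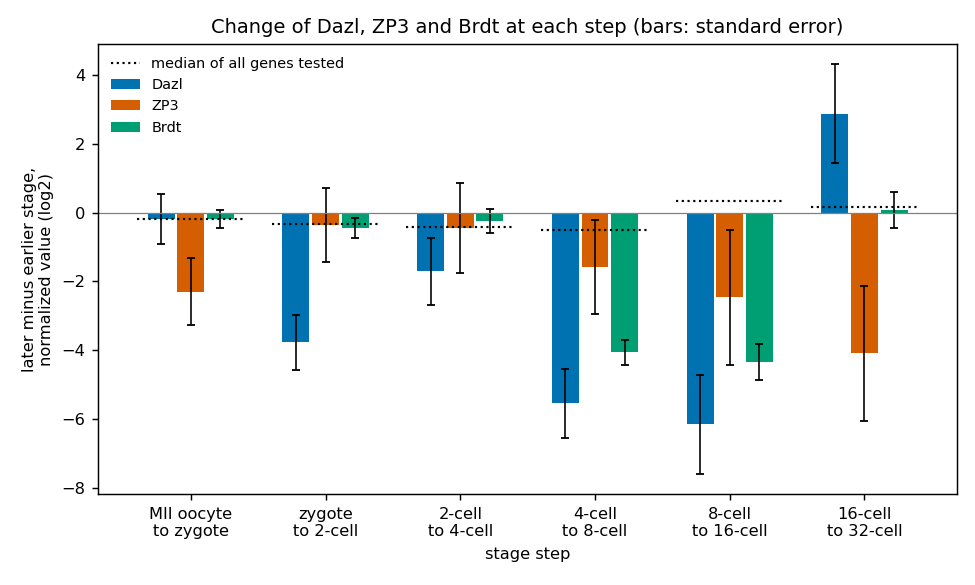
Difference between later and earlier stage of the normalized value (log2, vertical axis) for Dazl, ZP3 and Brdt at 6 stage steps (horizontal axis), over means per oocyte or embryo; error bars are the standard errors of the limma fit and dotted lines the median of the 156 genes. The deepest bars are those of Dazl at 4-cell to 8-cell (-5.54) and 8-cell to 16-cell (-6.15), and the positive Dazl bar at 16-cell to 32-cell did not pass the test.

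Dazl, the RNA-binding protein, was at 3.16, 3.46 and 4.02 (lowest, median and highest normalized value) in the 11 MII oocytes and at 3.01, 3.26 and 3.71 in the 14 zygotes. Both groups overlapped, and the difference of -0.18 (standard error 0.72, limma adjusted p = 0.930) did not pass. In the 21 samples of 2-cell embryos the values were -2.69, -0.43 and 1.37, all below every zygote. Averaged per embryo, Dazl fell from 3.31 ± 0.24 (SD, n = 14) to -0.45 ± 0.91 (SD, n = 8), 13.6-fold (difference -3.77, standard error 0.80, limma adjusted p = 3.56e-05). The median of all genes at this step was -0.33. The 3-cell samples were at -3.76, -1.34 and 0.29 and the 4-cell samples at -3.59, -2.41 and -0.97. From 2-cell to 4-cell embryos the difference of -1.71 (standard error 0.97) did not pass the adjustment (limma adjusted p = 0.168), and the embryos overlapped. This standard error comes from the fit of all stages, in which the 8-cell embryos had a Dazl SD of 4.78. The SD was 0.91 in 2-cell and 0.79 in 4-cell embryos. By an exact permutation test with unadjusted p the step passed. Dazl also fell more than Brdt there (exact permutation test, adjusted p = 0.004). The limma result therefore does not show that Dazl stayed level.

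At the 8-cell stage Dazl was detected in some single blastomeres and not in others. The 3 whole embryos were at -5.32, -5.64 and -3.11. Of the 24 single blastomeres, 9 held Dazl (Ct 17.8 to 21, normalized -5.60 to -2.67), and the other 15 had a Ct of 30. No Dazl Ct of the main set lay between 21.1 and 30 at any stage, so this gap is not particular to the 8-cell stage. Whether the 15 lacked Dazl or held amounts too low to detect was not tested. Detection differed between the embryos: Dazl was detected in 1 of 8 blastomeres of the first embryo, 5 of 8 of the next, 0 of 5 of another and 3 of 3 of the last. The control genes had a median Ct of 15.4 in blastomeres with and without detected Dazl, ranging from 14.3 to 16.1 with it and from 13.6 to 16.1 without. Averaged per embryo, the step from 4-cell (-2.16 ± 0.79, SD, n = 6) to 8-cell (-7.70 ± 4.78, SD, n = 7) gave a difference of -5.54 (standard error 1.00, limma adjusted p = 5.81e-06), and the embryos overlapped. The 9 blastomeres with signal had a median of -3.56, against -2.80 in the 9 single 4-cell blastomeres.

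At the 16-cell stage Dazl was detected in 1 of 26 samples, a single cell with a Ct of 18.1. From 8-cell to 16-cell embryos (n = 2) the value fell by 6.15 (standard error 1.44, limma adjusted p = 0.000985), and the difference was -3.63 with values below -10 set to -10 and -3.90 without whole embryos. With an exact permutation test, this step had a two-sided p = 0.278, and the embryos overlapped. At the 32-cell stage Dazl was detected in 8 of 50 samples (Ct 18.3 to 21.1) from 4 of 7 embryos. The embryo mean was then higher by 2.86 (standard error 1.44, limma adjusted p = 0.203). The undetected samples themselves moved with the control genes at this step, from a median normalized value of -14.01 at the 16-cell stage to -11.98 at the 32-cell stage. With values below -10 set to -10 the difference was 0.60.

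**Figure D2:**
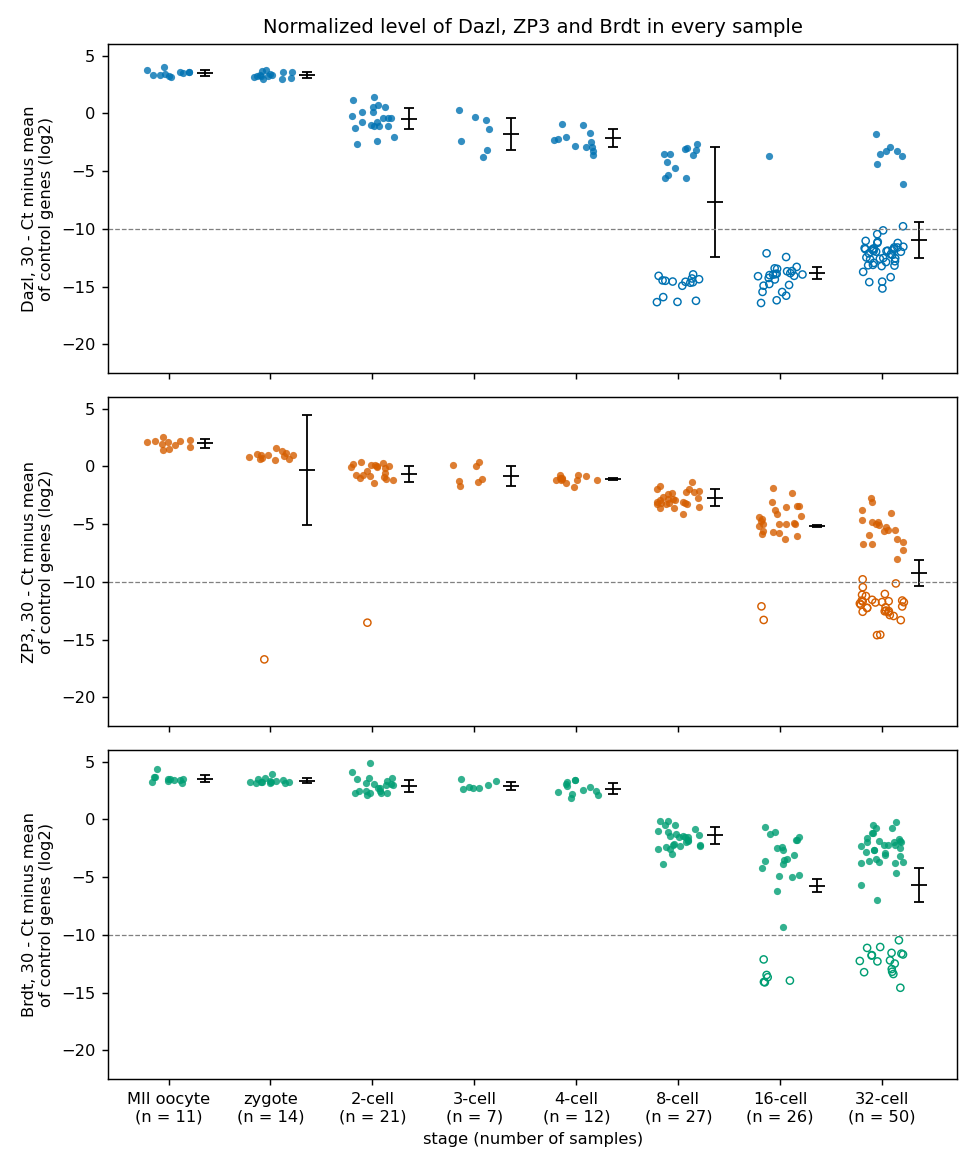
Normalized value (30 - Ct minus the mean of the control genes, log2, vertical axis) of Dazl, ZP3 and Brdt in each sample of the main set by stage (horizontal axis); filled points are detected, open points have a Ct of 30, black marks are the mean ± SD over oocytes or embryos, and the dashed line is the study's expression threshold of -10. Dazl divides into filled and open points from the 8-cell stage, ZP3 mainly at the 32-cell stage and Brdt from the 16-cell stage.

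ZP3, the zona pellucida protein, was at 1.37, 2.11 and 2.51 in the MII oocytes. It was at -16.71, 0.93 and 1.56 in the zygotes, because 1 of the 14 zygotes had a ZP3 Ct of 30. In this zygote Dazl (3.08) was within the range of the others and Brdt (3.12) was the lowest of the 14, and 16 of the 156 genes were not detected in it, where the median zygote lacked 14. The other 13 zygotes lay between 0.57 and 1.56, mostly below the oocytes but overlapping them. With all zygotes the difference of -2.29 had a standard error of 0.98 and did not pass (limma adjusted p = 0.226). Without that zygote the difference was -1.03 (standard error 0.25, limma adjusted p = 0.00729). 1 single 2-cell blastomere also lacked ZP3, with a normalized Dazl of 0.54 and a Brdt of 2.75.

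After these stages ZP3 went down in smaller steps. The detected 2-cell samples were at -1.42, -0.28 and 0.40, the 3-cell samples at -1.66, -1.12 and 0.38, and the 4-cell samples at -1.77, -1.14 and -0.74. The 27 samples of 8-cell embryos all held ZP3, at -4.09, -2.89 and -1.39. At the 16-cell stage 24 of 26 samples held it, at -6.27, -4.81 and -1.90. At the 32-cell stage 20 of 50 samples did, at -8.00, -5.37 and -2.74. With all samples the differences were -0.36, -0.45, -1.59, -2.46 and -4.09 from zygote to 32-cell embryos (limma adjusted p from 0.192 to 0.814). The embryos of the 4- and 8-cell, 8- and 16-cell and 16- and 32-cell stages did not overlap.

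The spread that limits these tests came mainly from the zygote that lacked ZP3, and less from the 2-cell blastomere that lacked it. The zygotes had an SD of 4.73 (n = 14), and the 2-cell embryos, with that blastomere included, 0.72 (n = 8). With both samples left out, ZP3 passed at 5 of 6 steps, by -1.03 from MII oocyte to zygote (limma adjusted p = 0.00484), -1.47 from zygote to 2-cell (standard error 0.27, limma adjusted p = 3.16e-06), -1.59 from 4-cell to 8-cell (standard error 0.33, limma adjusted p = 5.96e-05), -2.46 from 8-cell to 16-cell (standard error 0.48, limma adjusted p = 9.32e-05) and -4.09 from 16-cell to 32-cell (standard error 0.48, limma adjusted p = 2.86e-09). From 2-cell to 4-cell the difference of -0.60 did not pass (limma adjusted p = 0.147). Both samples were set aside for their ZP3 value, after the data were seen, so these calls describe the other samples. The last 2 steps rest on 2 embryos of 16 cells. For 2 against 7 embryos an exact permutation test gives no two-sided p below 0.0556. ZP3 was undetected in 30 of 50 samples of 32-cell embryos, whose normalized value is set by the control genes alone. Samples with ZP3 had a median of -4.81 in 16-cell embryos and of -5.37 in 32-cell embryos. The difference of -4.09 is thus not a measured fall in level.

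Brdt, the reader of acetylated histones, kept close to its oocyte level in normalized values until the 4-cell stage, while its raw content in whole embryos was lower from the 2-cell stage (given with the whole embryos). It was at 3.13, 3.48 and 4.34 in the MII oocytes, 3.12, 3.28 and 3.97 in the zygotes, 2.13, 2.94 and 4.89 in the 2-cell samples, 2.59, 2.80 and 3.52 in the 3-cell samples and 1.83, 2.65 and 3.405 in the 4-cell samples. Neighbouring stages overlapped, and the 3 differences of -0.18, -0.44 and -0.24 did not pass (limma adjusted p = 0.765, 0.173 and 0.617). In the 27 samples of 8-cell embryos Brdt was at -3.86, -1.51 and -0.11, below every 4-cell sample. Averaged per embryo, it fell from 2.66 ± 0.50 (SD, n = 6) to -1.39 ± 0.70 (SD, n = 7), 16.6-fold (difference -4.05, standard error 0.36, limma adjusted p = 1.36e-13). The median of all genes was -0.51 at this step, and Brdt ranked 5 from the lowest.

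At the 16-cell stage Brdt was detected in 20 of 26 samples, at -9.32, -3.28 and -0.69. The embryo mean fell by a further 4.34 to -5.73 ± 0.59 (SD, n = 2; standard error 0.53, limma adjusted p = 2.76e-09). The 2 embryos lay below all 8-cell embryos, and the exact permutation test gave p = 0.0556, two-sided, which is the smallest that 2 against 7 embryos allow. At the 32-cell stage 33 of 50 samples held Brdt, at -6.94, -2.29 and -0.23. The difference of 0.06 between the stages (standard error 0.53, limma adjusted p = 0.976) had no stable sign across the alternatives.

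The share of samples with a Ct below 30 ordered the 3 genes differently at different stages. Dazl was detected in all samples up to the 4-cell stage, then in 12 of 27 (44.4%, exact Clopper-Pearson 95% interval 25.5 to 64.7%), 1 of 26 (3.85%, 0.10 to 19.6%) and 8 of 50 samples (16.0%, 7.17 to 29.1%). ZP3 was detected in 13 of 14 zygotes (92.9%), 20 of 21 samples of 2-cell embryos (95.2%), 24 of 26 (92.3%, 74.9 to 99.1%) at the 16-cell stage and 20 of 50 (40%, 26.4 to 54.8%) at the 32-cell stage. Brdt was detected in all samples up to the 8-cell stage, then in 20 of 26 (76.9%, 56.4 to 91.0%) and 33 of 50 (66.0%, 51.2 to 78.8%). Blastomeres of 1 embryo are not independent, so the intervals cover counting error only and no test was made. The highest Ct of a detected sample in the main set was 21.1 for Dazl, 24.9 for ZP3 and 25.3 for Brdt.

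**Figure D3:**
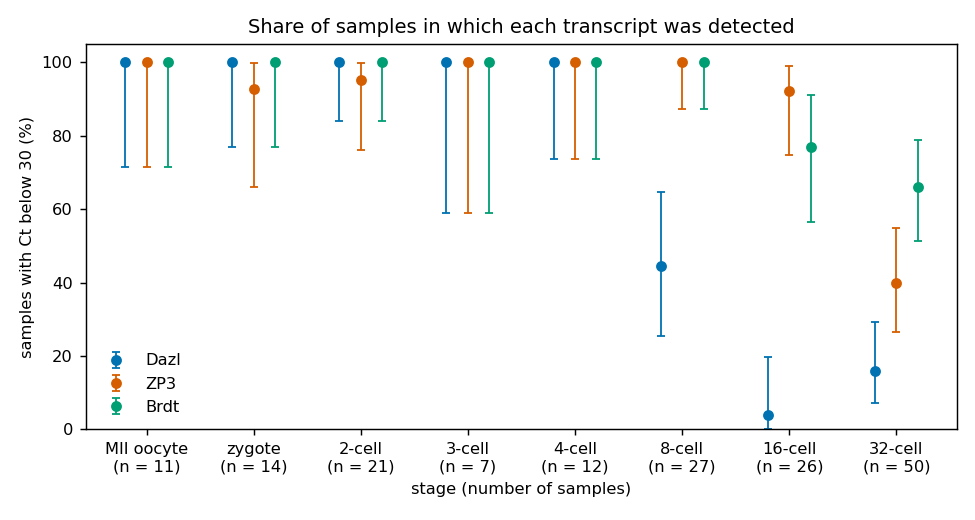
Share of the main set's samples with a Ct below 30 (%, vertical axis) by stage (horizontal axis) for Dazl, ZP3 and Brdt; error bars are exact Clopper-Pearson 95% intervals. Dazl drops to 44.4% at the 8-cell stage and 3.85% at the 16-cell stage, ZP3 to 40% at the 32-cell stage, and Brdt stays at 66.0% there.

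The difference of 2 transcripts within a sample does not depend on the control genes, and its change tells whether they fell at different times. Over 3 pairs and 4 steps, 12 exact or permutation tests were made, two-sided, with Benjamini-Hochberg adjustment over the 12. In MII oocytes Dazl minus Brdt was -0.03 ± 0.21 (SD, n = 11), and zygotes had -0.03 ± 0.34 (SD, n = 14). It changed to -3.36 ± 0.56 (SD, n = 8) in 2-cell embryos, with no overlap (change -3.33, exact permutation test, adjusted p = 7.51e-05), and to -4.82 ± 0.51 (SD, n = 6) in 4-cell embryos (change -1.47, exact permutation test, adjusted p = 0.00400). Dazl thus fell more than Brdt at both steps. From 4-cell to 8-cell the change of -1.48 did not pass (exact permutation test, adjusted p = 0.628).

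ZP3 minus Brdt went from -3.78 ± 0.57 (SD, n = 6) in 4-cell to -1.32 ± 0.67 (SD, n = 7) in 8-cell embryos, without overlap (change 2.47, exact permutation test, adjusted p = 0.00280), so Brdt fell more than ZP3 there. From MII oocytes to zygotes the same difference went from -1.54 to -3.66 (change -2.11, permutation test, adjusted p = 0.000300), or to -2.41 without the zygote lacking ZP3 (change -0.87, permutation test, adjusted p = 0.000900). ZP3 fell more than Brdt at this step in both settings. From zygote to 2-cell, Dazl minus ZP3 changed by -3.41 (exact permutation test, adjusted p = 0.000113), or by -2.33 without the samples lacking ZP3 (exact permutation test, adjusted p = 0.000177). Dazl fell more than ZP3 there. At the same step ZP3 minus Brdt changed by 0.08 and did not pass (exact permutation test, adjusted p = 0.795). Without the samples lacking ZP3, set aside after the data were seen, it changed by -1.02 and passed (exact permutation test, adjusted p = 0.00441). The changes of Dazl minus ZP3 from 2-cell to 4-cell (-1.26) and from 4-cell to 8-cell (-3.95) did not pass (exact permutation test, adjusted p = 0.113 and 0.0779).

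Whole oocytes, zygotes and embryos give the content of 1 egg or embryo per reaction, with no normalization and no assumption on cell number; how many cells hold a transcript and how much each holds cannot be told apart in them. In the MII oocytes the raw value (30 minus Ct) was 20.19, 20.49 and 21.74 for Dazl, 18.31, 19.02 and 19.67 for ZP3 and 20.01, 20.48 and 22.06 for Brdt. Whole 16- and 32-cell embryos, which are not in the main set, were added here, with 3 embryos a stage.

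The Dazl content was 15.56, 15.78 and 14.44 in the whole 2-cell embryos, 14.39, 14.52 and 13.88 in those of 4 cells and 11.67, 11.83 and 12.95 in those of 8 cells. Whole 16-cell embryos held 14.70, 11.59 and 8.50, and whole 32-cell embryos 0 (not detected), 11.44 and 9.32. All lay below every oocyte, and the late embryos of 1 stage differed among themselves by several units. Against MII oocytes Dazl was lower at every stage, with differences of -5.30, -6.30, -8.42, -8.97 and -13.65 from 2-cell to 32-cell embryos (standard error 1.12, limma adjusted p from 3.17e-13 to 6.36e-05). The last was -10.19 without the embryo that lacked Dazl. In the same order 61.5%, 59.6%, 53.8%, 17.9% and 45.5% of the 156 genes were lower than in oocytes and 14.1%, 15.4%, 25.0%, 59.6% and 37.8% higher, and the median of all genes was -1.79, -1.93, -1.34, 1.79 and -0.48. From zygote to 2-cell embryos alone Dazl fell by 5.12 (standard error 1.09, limma adjusted p = 7.58e-05), where 59.6% of genes were lower, 17.9% were higher and the median was -1.79.

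The ZP3 content was 15.13, 14.77 and 13.35 in the whole 2-cell embryos, 14.90, 14.32 and 14.94 in those of 4 cells and 14.82, 13.94 and 14.68 in those of 8 cells. Whole 16-cell embryos held 13.92, 15.32 and 14.87, and whole 32-cell embryos 12.00, 11.62 and 12.31. The embryos overlapped from the 2-cell to the 16-cell stage. The largest difference between neighbouring stages in this range was 0.30, and none of them passed (limma adjusted p from 0.938 to 0.998). In the same embryos the median of all genes moved by 0.14 from 2-cell to 4-cell (0.641% lower, 0% higher), 0.48 from 4-cell to 8-cell (11.5% lower, 14.1% higher) and 2.79 from 8-cell to 16-cell (0.641% lower, 79.5% higher). Against MII oocytes the difference was -4.64, -4.34, -4.58, -4.35 and -7.08 from 2-cell to 32-cell embryos (limma adjusted p = 0.0306, 0.0445, 0.0319, 0.0412 and 0.00124). No embryo overlapped the oocytes. The first 4 calls were lost when any 1 of the stage's 3 embryos was left out, but without the zygote lacking ZP3 the same differences had a standard error of 0.34 (limma adjusted p from 5.76e-14 to 3.64e-13). From zygote to 2-cell the difference of -2.34 (standard error 1.90) did not pass with all zygotes (limma adjusted p = 0.261) and was -3.63 without the zygote lacking ZP3 (standard error 0.34, limma adjusted p = 1.86e-11). From 16-cell to 32-cell it was -2.73, with limma adjusted p = 0.328 with all zygotes in the fit and 1.54e-06 without that zygote.

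The Brdt content was 18.63, 19.32 and 17.49 in the whole 2-cell embryos and 18.48, 18.89 and 18.63 in those of 4 cells. Embryos of 8 cells held 15.65, 15.97 and 15.96, those of 16 cells 15.23, 14.83 and 14.90, and those of 32 cells 9.68, 11.95 and 10.73. Against MII oocytes the differences were -2.12, -1.93, -4.74, -5.61 and -9.81 in the same order (limma adjusted p from 3.94e-22 to 2.25e-05). From zygote to 2-cell embryos Brdt fell by 1.93 (standard error 0.37, limma adjusted p = 1.79e-05), without overlap and close to the median of -1.79. Brdt fell by 2.81 from 4-cell to 8-cell embryos (standard error 0.48, limma adjusted p = 1.87e-05), where 11.5% of genes were lower and Dazl (-2.12, limma adjusted p = 0.253) and ZP3 (-0.24, limma adjusted p = 0.974) did not pass. The Dazl embryos of these 2 stages nevertheless did not overlap, with SDs of 0.34 and 0.70. Their standard error of 1.40 comes from the fit of all stages, in which the 32-cell embryos had a Dazl SD of 6.09. The Brdt difference of -0.87 from 8-cell to 16-cell did not pass (limma adjusted p = 0.0898). From 16-cell to 32-cell the difference of Brdt was -4.202 (standard error 0.48, limma adjusted p = 6.92e-09) and that of Dazl -4.68 (standard error 1.40, limma adjusted p = 0.00379), in a step where 64.1% of genes were lower, 1.28% were higher and the median was -2.46. The Dazl value rests on single embryos, which were left out in turn after the data were seen, and the stages overlapped. It was -1.22 without the 32-cell embryo that lacked Dazl (limma adjusted p = 0.240) and -3.13 without the 16-cell embryo at 14.70 (limma adjusted p = 0.0572). Without any 1 of the 6 embryos Brdt was between -4.78 and -3.65 and passed. The control genes of whole embryos rose from 8-cell to 16-cell (limma adjusted p from 6.45e-07 to 0.00178). Their rise was 2.21 for Hnrnpr, 2.80 for Ssu72 and 2.23 for Ube2e1. The normalized fall over this step was measured without these whole 16-cell embryos, on blastomere samples of other embryos. Across the main set the mean control Ct went up over this step, from 14.98 to 15.69. The raw embryo means there went from 14.28 to 8.58 for Brdt, 12.96 to 9.14 for ZP3 and 7.97 to 0.46 for Dazl. In these main set values the 8-cell stage includes 3 whole embryos, while the 16-cell stage has blastomere samples only. The part of an embryo per reaction therefore differed. Over the 8-cell blastomere samples alone the mean control Ct was 15.21, and the mean raw value was 13.03 for Brdt, 11.94 for ZP3 and 4.04 for Dazl.

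**Figure D4:**
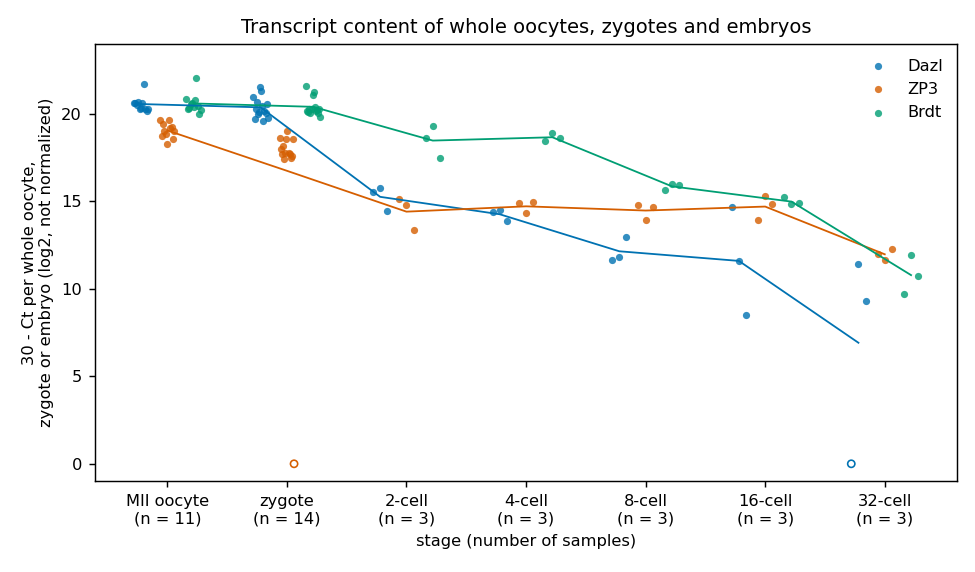
Raw value (30 - Ct, log2, not normalized, vertical axis) of Dazl, ZP3 and Brdt in whole oocytes, zygotes and embryos by stage (horizontal axis); points are single samples, open points were not detected, and lines join the means. ZP3 lies level from the 2-cell to the 16-cell stage, Brdt steps down from zygote to 2-cell, from 4-cell to 8-cell and from 16-cell to 32-cell embryos, and the Dazl points spread apart in late embryos.

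Single blastomeres can be set beside an even share of the whole embryo, which is the Ct of the whole embryo plus the log2 of its cell number. For Dazl this share had a median Ct of 17.6, 21.2, 22.4 and 24.6 at 4, 8, 16 and 32 cells, the last over the 2 embryos with signal. The highest Ct with Dazl was 21.1 in the main set and 21.5 in a whole 16-cell embryo, so the share at 8 cells lies near the highest detected Ct and the last 2 above it. The single cells with Dazl had median Ct of 18.2 (9 of 9 cells), 19.1 (9 of 24), 18.1 (1 of 20) and 20.5 (3 of 32) at these stages, so from the 8-cell stage on the median detected cell had a lower Ct than the even share. For ZP3 the share had a Ct of 18.3, 19.1 and 23 at the 8-, 16- and 32-cell stages, and the detected single cells had medians of 18.02, 20.7 and 23.1. For Brdt it was 17.04, 19.1 and 24.27, and the single cells had medians of 17.1, 18.6 and 20.3. Whether transcript was unevenly distributed or low amounts escaped detection was not tested. The mean raw value of the control genes was higher in whole embryos than in single blastomeres by 2.39, 1.04, 2.05 and 5.30 at 2, 4, 8 and 16 cells, where the log2 of the cell number is 1, 2, 3 and 4. At 4 and 8 cells whole embryos thus fell short of the cell number, and at 2 and 16 cells they exceeded it.

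Among the 76 late blastomere samples (16- and 32-cell embryos), ZP3 and Brdt were the common remains. Both together without Dazl were found in 30 samples, Brdt alone in 16, ZP3 alone in 7, all 3 in 5, Dazl with either of the others in 2 each and Dazl alone in 0. None of the 3 was detected in 14 samples, 1 of them at the 16-cell stage. The 16-cell stage held ZP3 with Brdt in 18 of 26 samples, and the 32-cell stage in 12 of 50.

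Over both late stages together, Dazl was detected in 5 of 24 groups (20.8%) and 4 of 52 single cells (7.69%), ZP3 in 20 of 24 (83.3%) and 24 of 52 (46.2%), and Brdt in 20 of 24 (83.3%) and 33 of 52 (63.5%). The stages differed: in 16-cell embryos Dazl was found in 0 of 6 groups and 1 of 20 single cells, ZP3 in 6 of 6 and 18 of 20 and Brdt in 6 of 6 and 14 of 20. In 32-cell embryos Dazl was found in 5 of 18 groups and 3 of 32 single cells, ZP3 in 14 of 18 and 6 of 32 and Brdt in 14 of 18 and 19 of 32. No test was made of these counts. The raw value of ZP3 went with the amount of template (Spearman rho -0.74 with the mean Ct of the control genes over the 76 samples), that of Brdt less (rho -0.50) and that of Dazl least (rho -0.17). These rho are descriptions, since samples of 1 embryo share their source. The 44 samples with ZP3 had a median control Ct of 16.1 and the 32 without it 17.9. The part of template in the loss of ZP3 was not tested.

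**Figure D5:**
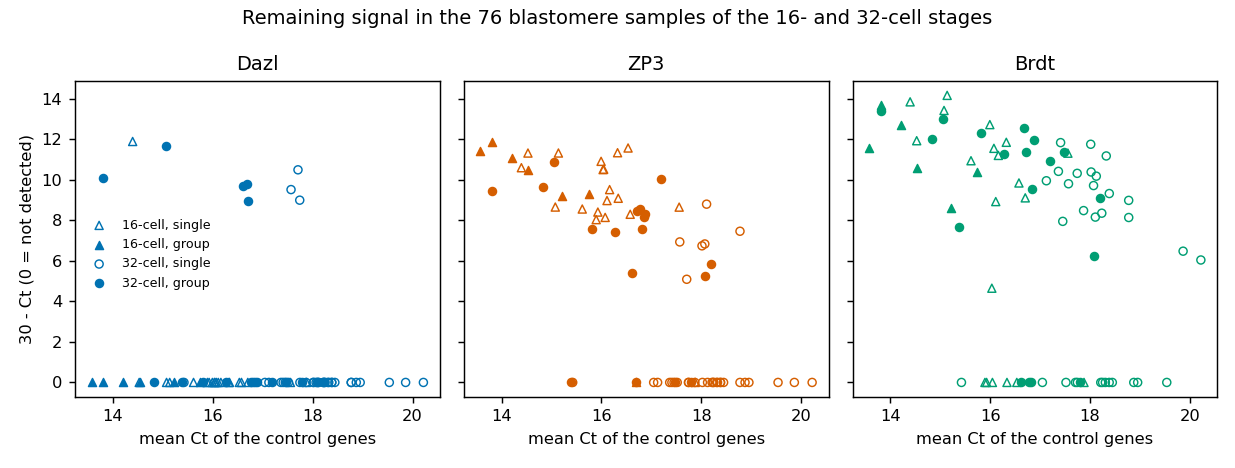
Raw value (30 - Ct, vertical axis, 0 for not detected) of Dazl, ZP3 and Brdt against the mean Ct of the control genes (horizontal axis, higher for less template) in 26 samples of the 16-cell stage (triangles) and 50 of the 32-cell stage (circles); open symbols are single cells, filled symbols groups. ZP3 values decline toward the right, while the 9 Dazl values lie between 8.93 and 11.89 at control Ct from 13.8 to 17.7.

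By embryo, Dazl was found in 0 and 1 of 13 samples of the 16-cell embryos. In the 7 embryos of the 32-cell stage it was found in 4 of 12, 1 of 10, 0 of 9, 0 of 5, 0 of 3, 1 of 5 and 2 of 6 samples. ZP3 was found in 12 of 13 samples of both 16-cell embryos, then in 3 of 12, 4 of 10, 5 of 9, 1 of 5, 1 of 3, 2 of 5 and 4 of 6. Brdt was found in 10 of 13 samples of both 16-cell embryos, then in 8 of 12, 5 of 10, 7 of 9, 3 of 5, 3 of 3, 3 of 5 and 4 of 6. ZP3 and Brdt were thus detected in some samples of every late embryo, and Dazl in some samples of 5 of 9. An embryo without a detected sample may still hold amounts too low to detect.

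Late signals were found on both sides of a lineage score. The score, the mean of 12 ICM genes minus the mean of 8 TE genes, is above 0 in samples that lean to the ICM. It ran from -7.98 to 9.59 in the 9 samples with Dazl, 6 of which were above 0, as were 43 of the 67 without Dazl. For ZP3 26 of 44 samples with and 23 of 32 without it were above 0, and for Brdt 37 of 53 with and 12 of 23 without. These counts pool 2 stages that differ in the score. At the 16-cell stage 1 of 1 with and 8 of 25 without Dazl were above 0. For ZP3 these were 9 of 24 and 0 of 2, and for Brdt 8 of 20 and 1 of 6. At the 32-cell stage they were 5 of 8 and 35 of 42 for Dazl, 17 of 20 and 23 of 30 for ZP3 and 29 of 33 and 11 of 17 for Brdt. The pooled direction for ZP3 was thus reversed within each stage. An isolated ICM held all 3 transcripts, with a Ct of 18.6 for Dazl, 17.5 for ZP3 and 16.4 for Brdt, and so did an isolated TE (19.5, 20.6 and 20.2), with 1 sample each and no test.

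ESC RNA also gave signals of all 3 assays. Of 10 samples of 25 to 800 pg, 7 held Dazl (Ct 17.96 to 21.1), 8 held ZP3 (Ct 18.2 to 23.2) and 6 held Brdt (Ct 20.8 to 26.1). The normalized values of the detected samples had medians of -4.58, -4.54 and -6.79 for Dazl, ZP3 and Brdt. In the 8-cell blastomeres with signal the median of Dazl was -3.56, and in the 32-cell samples with signal those of ZP3 and Brdt were -5.37 and -2.29. No sample without template was analysed here, so a background of the assays is not known.

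Other genes known from oocytes and germ cells, a list of 6 (Dppa3, Kdm1b, Tet3, Scml2, Suv39h2 and Prdm14), fell in part with the 3. The study named Kdm1b, Tet3, Scml2 and Suv39h2 as maternal or mainly maternal from these same data. Their fall was thus known beforehand and is no independent support. From MII oocytes to 16- and 32-cell embryos 5 of the 6 list genes were lower and Prdm14, a factor of germ cell specification, was higher, with a list median of -7.20 against -0.35 over all genes. Of all 156 genes 46.8% were lower and 37.8% higher. From MII oocyte to zygote 0 of 6 passed, as for the 3 members, where 1.28% of all genes were lower and 0.641% higher. From zygote to 2-cell 4 fell, namely Dppa3, the H3K4 demethylase Kdm1b, the 5-methylcytosine oxidase Tet3 and the H3K9 methyltransferase Suv39h2, and Prdm14 rose (list median -1.46). At this step 39.1% of all genes were lower and 29.5% higher, with a median of -0.33. From 4-cell to 8-cell Kdm1b, Tet3, Suv39h2 and the Polycomb gene Scml2 fell (list median -2.57), and from 8-cell to 16-cell Kdm1b, Tet3 and Scml2 (list median -2.74). Over all genes 35.9% and 8.33% were lower at these steps, with medians of -0.51 and 0.32. From 2-cell to 4-cell Suv39h2 alone fell, where 25.6% of all genes were lower, and from 16-cell to 32-cell Dppa3 alone, where 1.92% were. Tet3 went from 2.11 ± 0.20 (SD, n = 11) in MII oocytes to -1.93 ± 1.39 (SD, n = 8) in 2-cell embryos and was detected in 25 of 50 samples at the 32-cell stage. Scml2 went from -2.64 ± 0.35 (SD, n = 6) in 4-cell to -6.49 ± 1.00 (SD, n = 7) in 8-cell embryos and was detected in 7 of 50 samples at the 32-cell stage. Scml2 was also undetected in 1 of 14 zygotes.

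Over the 58 means per oocyte or embryo, the genes most like Dazl by Pearson r were Tet3 (0.96), Prdm4 (0.93) and Bmi1 (0.93), and those most like Brdt were Jhdm1d (0.96), Bmi1 (0.94) and Kdm1b (0.92). For ZP3 the highest r were lower, with Jhdm1d (0.77), Kdm1b (0.76) and Pcgf1 (0.76). Between the members r was 0.90 for Dazl and Brdt, 0.76 for ZP3 and Brdt and 0.69 for Dazl and ZP3. These values share the control genes and the order of stages and carry no p. Over the 76 late blastomere samples Dazl was closest to Kdm5d, Dlx1 and Mll1 (Spearman rho 0.71, 0.67 and 0.56), of which Kdm5d was detected in 11 and Dlx1 in 2 samples. Dazl itself was undetected in 67 of the 76, so every rho with Dazl, those with Brdt and ZP3 included, rests mostly on values set by the same control genes. ZP3 was closest to Hdac1, Kdm2b and Dppa3 (rho 0.43, 0.33 and 0.33) and Brdt to Klf2, Klf4 and Nf2 (rho 0.43, 0.36 and 0.36). Between the members, rho in these samples was 0.13 for ZP3 and Brdt, 0.09 for Dazl and Brdt and -0.31 for Dazl and ZP3.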

How the data were processed

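The authors reverse transcribed and preamplified each sample with the primers of all assays and ran qPCR on Fluidigm BioMark chips. They deposited a table of Ct values (a score, with 30 for undetected genes) for 189 samples and 192 assays and a normalized table in log2 units. The values of the deposited log2 table are relative to Gapdh, Hspa8 and Lmnb1 (within 1.03e-08). The methods name Hnrnpr, Ssu72 and Ube2e1, so values here were computed from the Ct with the latter. Left out of the main set were 36 failed assays, 6 whole 16- and 32-cell embryos, isolated ICM and TE, ESC RNA and 3 samples the study left out.

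Samples were grouped by the labels and averaged per oocyte or embryo (58 units); 11 2-cell blastomeres of unnamed embryos were 1 unit. Stages were compared with limma (3.58.1, R 4.3.3), all stages in 1 fit, Benjamini-Hochberg over 156 genes, threshold 0.05. The script was tested on simulated data. Differences between members used permutation tests (scipy 1.17.1; 100000 permutations where both groups held 10 or more). qPCR has no read depth; the Ct of the control genes stands for template. The members and gene lists were chosen with earlier results of these data known. Named genes are the members, the control genes, the germ cell list and the 3 genes most like each member. Alternatives were other control genes, a floor at -10, other units and sample sets, permutation tests, left-out embryos and the replicate number as a block.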

Additional observations from a re-analysis of the deposited data

Results flagged for a closer look

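Among 12 groups tested for a sample far from the rest, 1 stood out. It is the ZP3 value of a 4-cell embryo at -0.93, the highest of 6 embryos, of which the others lay between -1.17 and -1.13. Chance gives about 1 in 20 for each group, so 1 among 12 groups is no clear excess. The zygote that lacked ZP3 was not among the values flagged by this rule.

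An MII oocyte that the study left out held all 3 transcripts, with raw values (30 minus Ct) of 17.9 for Dazl, 14.8 for ZP3 and 18.9 for Brdt, each below the lowest of the 11 other oocytes (20.19, 18.31 and 20.01). Its control genes had a mean Ct of 15.1, against 12.3 to 13.5 in the others. Its normalized values were 2.97, -0.10 and 3.98, those of Dazl and ZP3 below the range of the other oocytes and that of Brdt within it.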

How the results depend on the processing

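Of the alternatives to the main comparisons, 473 kept direction and side of the threshold, 26 newly passed it, 18 no longer passed and 14 turned the sign; the cause was not tested except where the construction shows it. All alternatives run kept Dazl, ZP3 and Brdt lower from MII oocytes to late embryos. For Brdt from 16-cell to 32-cell (0.06) the sign turned without normalization (-1.90), without Hnrnpr (-0.11) or Ube2e1 (-0.10), with the deposited table (-1.09), with values below -10 set to -10 (-0.10), with every sample as a replicate (-0.12) and with the 3 samples the study left out (-0.19), and leaving out either 16-cell embryo gave -0.36 to 0.48. Without normalization, Brdt (1.04) and ZP3 (0.83) turned from 2-cell to 4-cell, Brdt (-3.44) and ZP3 (-3.36) passed from zygote to 2-cell, and ZP3 (-6.06) passed from 16-cell to 32-cell. These unnormalized means mix blastomeres with whole embryos, so the part of an embryo per reaction also differed. Whole embryos alone gave -1.93 for Brdt and -2.34 for ZP3 from zygote to 2-cell, the latter not passing. With the deposited table ZP3 passed from 16-cell to 32-cell (-5.25) and Brdt from zygote to 2-cell (-0.89), as Brdt did without Ube2e1 (-0.94). ZP3 from zygote to 2-cell was 0.066 without Hnrnpr. With every sample as a replicate, Dazl (2.98) and ZP3 (-4.21) passed from 16-cell to 32-cell and ZP3 from 8-cell to 16-cell (-2.36). With values below -10 set to -10, Dazl passed from 2-cell to 4-cell (-1.71), and Dazl minus Brdt from 4-cell to 8-cell (0.084) and ZP3 minus Brdt from zygote to 2-cell (-0.36) turned.

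By permutation tests with unadjusted p, Dazl passed from 2-cell to 4-cell (-1.71, exact p = 0.00333), ZP3 from MII oocyte to zygote (-2.29, p = 2.0e-05 by 100000 permutations, about the smallest they can give) and from 4-cell to 8-cell (-1.59, exact p = 0.00117), and Brdt from zygote to 2-cell (-0.44, exact p = 0.0127). From 8-cell to 16-cell Dazl did not pass (-6.15, exact p = 0.278), and Brdt (-4.34) reached exact p = 0.0556, the smallest that 7 against 2 embryos allow, so it could not pass. Without the zygote lacking ZP3 (chosen after the data were seen), ZP3 passed from MII oocyte to zygote (-1.03, in whole-cell content -1.02), zygote to 2-cell (-1.62), 4-cell to 8-cell (-1.59), 8-cell to 16-cell (-2.46) and 16-cell to 32-cell (-4.09). Leaving out the 2-cell blastomere as well gave -1.47 from zygote to 2-cell, and ZP3 minus Brdt then turned there and passed (-1.02, exact permutation test, adjusted p = 0.00441). Without whole embryos, or with single cells only, neither Dazl minus Brdt from 2-cell to 4-cell (-1.80, -1.33) nor ZP3 minus Brdt from 4-cell to 8-cell (2.35 in both) passed after adjustment. Their unadjusted p were the smallest that these embryo numbers allow by exact permutation (0.0357 for 5 against 3, 0.1 for 3 against 3 and 0.0571 for 3 against 4), so only the first could have passed even unadjusted, and the values say nothing of stability. Leaving out 1 whole embryo of a stage, the ZP3 content against MII oocytes no longer passed, at -5.00 to -4.11 (2-cell), -4.45 to -4.14 (4-cell), -4.75 to -4.31 (8-cell) and -4.66 to -3.96 (16-cell), differences close to those with all embryos. Without the zygote lacking ZP3 and with all embryos, these 4 passed (standard error 0.34, limma adjusted p from 5.76e-14 to 3.64e-13). With the replicate block, ZP3 from MII oocyte to zygote was -1.09 (limma adjusted p = 0.000162), and the block changed no other call; the numbers only index samples (correlation of 11 pairs from -0.26 to 0.25).

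The number of genes called moved with the scaling. Unnormalized values also reflect the part of an embryo in each reaction, which differed between stages. Without normalization, lower and higher genes were 0 and 0 in place of 2 and 1 from MII oocyte to zygote, 115 and 22 in place of 61 and 46 from zygote to 2-cell, and 3 and 33 in place of 40 and 11 from 2-cell to 4-cell. Lower genes from 4-cell to 8-cell were 24 in place of 56, higher genes from 8-cell to 16-cell 1 in place of 31, and from 16-cell to 32-cell 50 were lower and 2 higher in place of 3 and 14. With the deposited normalization 76 were lower and 3 higher from 8-cell to 16-cell in place of 13 and 31, 40 lower and 3 higher from 16-cell to 32-cell, 6 higher from 2-cell to 4-cell, and 115 lower and 20 higher from MII oocytes to late embryos. Without Hnrnpr 6 genes were lower and 0 higher from MII oocyte to zygote and 9 higher from 16-cell to 32-cell, without Ssu72 24 were higher there, and without Ube2e1 5 were lower there and 22 lower from 2-cell to 4-cell. A transcript at a Ct of 30 has no measured level, so late normalized values depend on template.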

Other observations

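The 2 blastomeres of 32-cell embryos that the study left out held none of the 3 transcripts. Averaged over the control genes, the Ct was 22.7 and 20.9, above the 20.2 that was the highest in the main set, so their normalized values of -7.34 and -9.07 lie above -10 without any signal.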
